A study of Mus musculus with 10 samples.

Results

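The genes described here carry the TGF-beta signal and set free its ligand: Tgfb1, Tgfbr1, Tgfbr2, Smad3, Smad7, Skil, Lrrc32 and Itgb8, 8 genes chosen by name. Probe sets annotated to 1 of these genes alone were used, and the brightest probe set of each gene over the 10 arrays was read. The annotation listed such probe sets for 7 of the 8 genes, 16 probe sets in all, out of 18193 genes with a probe set of their own. Lrrc32 was not among them and was not analysed here. All 7 genes passed the filter on dim genes and were tested among 11938 genes, and each was brighter than the array median on all 10 arrays.

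RNA of sorted mouse CD4 T cells from pooled lymph node and spleen was measured on Affymetrix mouse arrays, with 10 groups of 1 array each, and all mice were labelled female and 6 to 8 weeks old. GFPfoxp3 cells were GFP-positive cells of Foxp3(gfp/gfp) mice, in which Foxp3, the transcription factor of regulatory T cells, is made as a fusion with GFP. GFPko cells were GFP-positive cells of Foxp3(gfpko/wt) females, in which the X-linked mutant allele makes GFP in place of Foxp3 and only part of the cells use that allele. CD25pos and CD25neg cells were GFP-negative CD4 cells of the Foxp3(gfp/gfp) mice with and without CD25, a chain of the IL-2 receptor. GFPfoxp3, GFPko and CD25pos cells were also taken from mice given 4 injections of IL-2 at 50 ng per g within 24 h and sorted 30 min after the last; the labels of the untreated samples mention no injection. The Foxp3(gfp/gfp) line had 8 to 10 backcrosses to C57BL/6 from 129/Sv and the gfpko line had 5. MigR1_PDE3B, MigR1_PDE3B_H801A and MigR1_empty cells came from C57BL/6 CD25-positive CD4 cells. These had been stimulated in culture through CD3 and CD28 with IL-2 and transduced with a GFP-marked retrovirus carrying PDE3B, its H801A form or no insert. They were mixed with Ly5.1-positive CD25-negative CD4 cells transduced with the same vector, given to TCRalpha-deficient hosts, which have no alpha beta T cells of their own, and sorted 3 weeks later as GFP-positive, GITR-positive, Ly5.1-negative CD4 cells.

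TGF-beta is secreted in a latent form, wrapped in its own propeptide. On regulatory T cells GARP, the product of Lrrc32, holds this complex at the surface, and the integrin made of the alpha v chain (Itgav) and the beta 8 chain (Itgb8) can set the active cytokine free. Active TGF-beta binds the type II receptor (Tgfbr2), which activates the type I receptor (Tgfbr1), and this phosphorylates the transcription factors SMAD2 and SMAD3. Smad7 and Skil encode negative regulators that are themselves controlled by the signal. In T cells the pathway restrains activation and can induce Foxp3.

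Itgb8 and Tgfbr1 were the members with the largest differences between cells with Foxp3 protein and CD25pos cells. The 250 bases before their annotated starts, from RefSeq (build GRCm38.p6), are shown because both genes were higher there. Capitals mark the motif CAGAC, a short element bound by SMAD proteins.
Itgb8, chr12:119238277-119238526, minus strand: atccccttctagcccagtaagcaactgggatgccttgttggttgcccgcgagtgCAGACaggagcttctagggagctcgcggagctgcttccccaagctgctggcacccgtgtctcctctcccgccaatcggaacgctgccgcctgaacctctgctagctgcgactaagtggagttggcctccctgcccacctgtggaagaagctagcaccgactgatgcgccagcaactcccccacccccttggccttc
Tgfbr1, chr4:47352972-47353221, plus strand: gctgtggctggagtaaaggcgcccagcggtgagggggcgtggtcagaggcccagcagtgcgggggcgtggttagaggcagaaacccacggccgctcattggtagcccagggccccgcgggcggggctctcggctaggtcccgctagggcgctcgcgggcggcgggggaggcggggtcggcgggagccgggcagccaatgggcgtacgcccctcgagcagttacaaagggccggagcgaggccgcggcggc
The search covered 4 motifs on both strands: CAGAC, the SMAD palindrome GTCTAGAC, the forkhead motif TGTTTAC and the STAT5 motif TTCNNNGAA. The palindrome does not contain CAGAC. The Itgb8 window held 1 CAGAC, which began 196 bases before the start, and the Tgfbr1 window shown held none of the 4 motifs. Over all 32851 promoters of the table, windows of the same length held CAGAC in 42.19%, the palindrome in 0.17%, the forkhead motif in 3.17% and the STAT5 motif in 7.02%. The table held 6 windows for 5 of the members, and CAGAC was in 3 of them (Itgb8, Tgfbr2 and a second start of Tgfbr1) and no other searched motif in any.

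The 7 arrays of freshly sorted cells and the 3 arrays of transduced cells come from separate experiments, so experiment and cell group cannot be told apart between them. For Actb, the 3′ control probe set exceeded the 5′ one by 2.70 to 3.80 log2 units on the first and by 5.87 to 6.38 on the second, a gap that widens as labelled RNA gets shorter. Markers of CD4 T cells were bright on every array (all 6 measured). Foxp3 itself was at 10.86 and 10.86 in GFPfoxp3, 9.39 and 8.33 in GFPko and 2.85 and 3.90 in CD25pos cells after IL-2 and without it. GFPko cells transcribe the mutant locus, per their labels, and gave signal on this probe set, so it does not check the absence of Foxp3 protein. All 7 platelet markers lay below the array median on every array, and so did the 3 measured erythroid markers, and all 6 measured dendritic cell markers on the 7 arrays of sorted cells. With 1 array per group, the replicated comparisons were those among GFPfoxp3, GFPko and CD25pos cells, each measured with and without IL-2. They were fitted together with limma (population and IL-2 as additive terms). A p-value therefore sets a difference against how unevenly the gene's change with IL-2 ran over these populations, after limma drew that spread towards the spread of all genes. It holds nothing on the spread between animals. Levels are log2 expression values, and a difference of 1 is 2-fold. In such bulk samples, fewer cells of a type and less RNA per cell cannot be told apart.

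Among the members, Itgb8 differed most between the populations. Itgb8, the integrin chain that serves release of latent TGF-beta, was at 8.68 and 8.70 in GFPfoxp3 cells after IL-2 and without it, against 5.08 and 5.57 in GFPko cells. CD25pos cells stood at 4.84 and 5.48 and CD25neg cells at 4.49. Both GFPfoxp3 arrays therefore lay over 3 log2 units above each of the other 5 arrays of freshly sorted cells, which ranged from 4.49 to 5.57. The transduced cells gave 9.80 with PDE3B, 9.66 with H801A and 9.65 with the empty vector, the 3 highest values of all. Itgb8 rose 10.3-fold in GFPfoxp3 over GFPko cells (log2 difference 3.37, SE 0.182, limma adjusted p = 0.00771) and 11.6-fold over CD25pos cells (3.53, SE 0.182, limma adjusted p = 0.00516). These were the 21st and the 12th largest increases among the 11938 genes. Between GFPko and CD25pos cells the difference was 0.16 (SE 0.182, limma adjusted p = 0.717), so none was detectable between these. The first call held in 11 of 12 alternative settings and the second in all 12. These settings overlap. For the second call, leaving out both GFPko arrays or only the IL-2 one gave the same fit. Settings on probe sets could not change the Itgb8 difference, which rests on a single probe set. The exception for the first call was the fit without the GFPko array after IL-2, in which the lone GFPko array was assumed to vary like the other groups. It gave 3.29 with an adjusted p of 0.0644 in limma, and called 0 genes in GFPfoxp3 over GFPko cells and 836 in GFPfoxp3 over CD25pos cells.

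**Figure D1:**
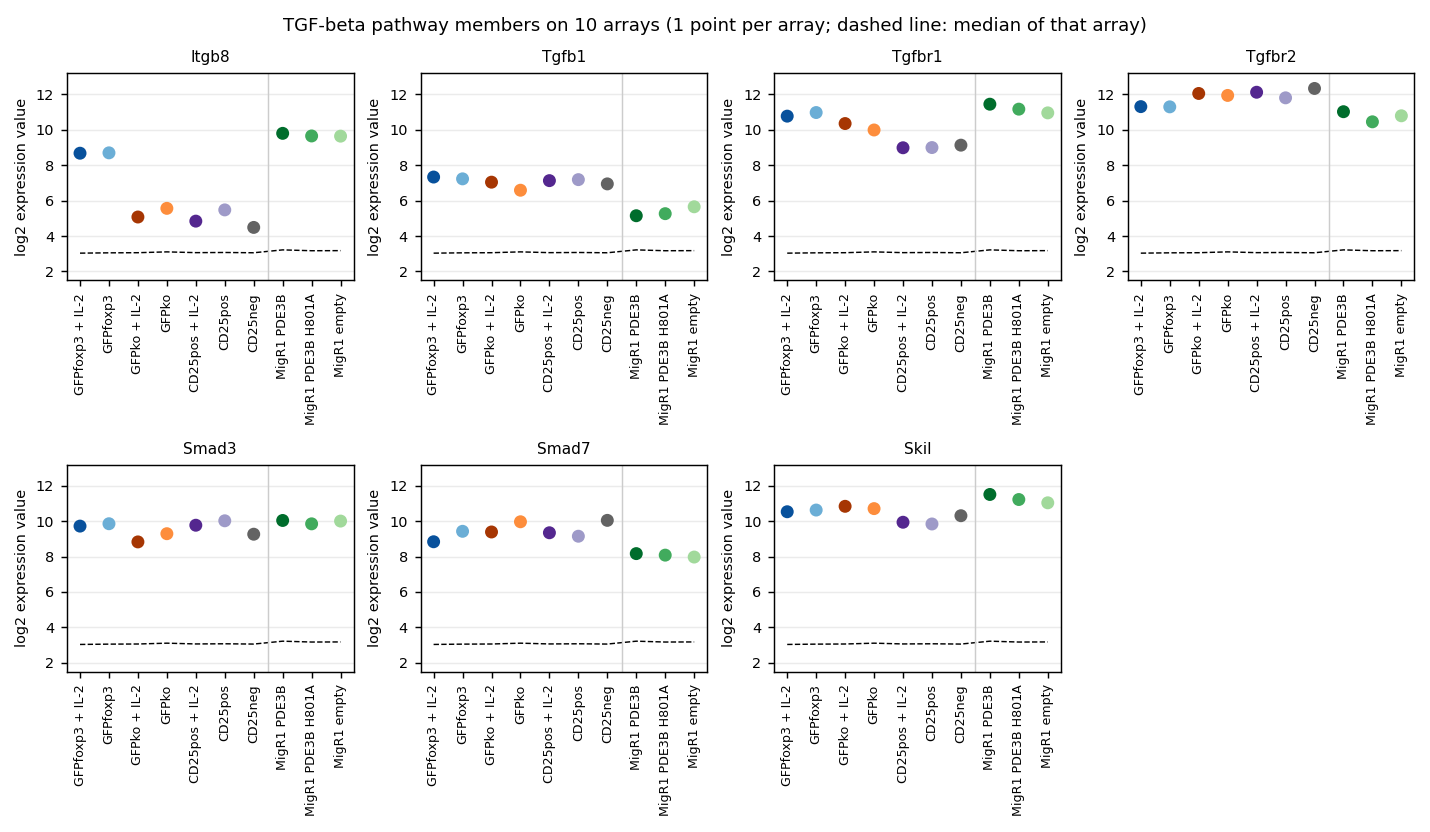
Log2 expression value (vertical axis) of the 7 measured TGF-beta pathway genes on each of the 10 arrays (horizontal axis, 1 point per array), with the median of each array as a dashed line. The grey line separates freshly sorted from transduced cells. Itgb8 stands at 8.68 and 8.70 in GFPfoxp3 cells and at 5.57 or lower in the other sorted cells.

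Tgfb1, the ligand, spanned less than 1 log2 unit over the sorted cells. Its brighter probe set read 7.34 and 7.23 in GFPfoxp3 cells after IL-2 and without it, 7.05 and 6.59 in GFPko cells, 7.13 and 7.19 in CD25pos cells and 6.95 in CD25neg cells. The transduced cells were lower, at 5.15 with PDE3B, 5.27 with H801A and 5.66 with the empty vector. No limma comparison called Tgfb1: GFPfoxp3 cells differed from GFPko cells by 0.47 (SE 0.158, adjusted p = 0.167) and from CD25pos cells by 0.12 (SE 0.158, adjusted p = 0.710). The second Tgfb1 probe set ran the other way. It read 6.66, 7.11 and 6.38 in cells with PDE3B, H801A and the empty vector, against 4.87 to 5.62 in the 7 arrays of sorted cells. It was also lower in GFPfoxp3 cells (5.16 and 5.04) than in GFPko cells (5.62 and 5.62). The Actb 3′ to 5′ difference moved with both probe sets between sorted and transduced cells, and its part in the result was not tested. No direction for Tgfb1 in the transduced cells can therefore be given.

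**Figure D2:**
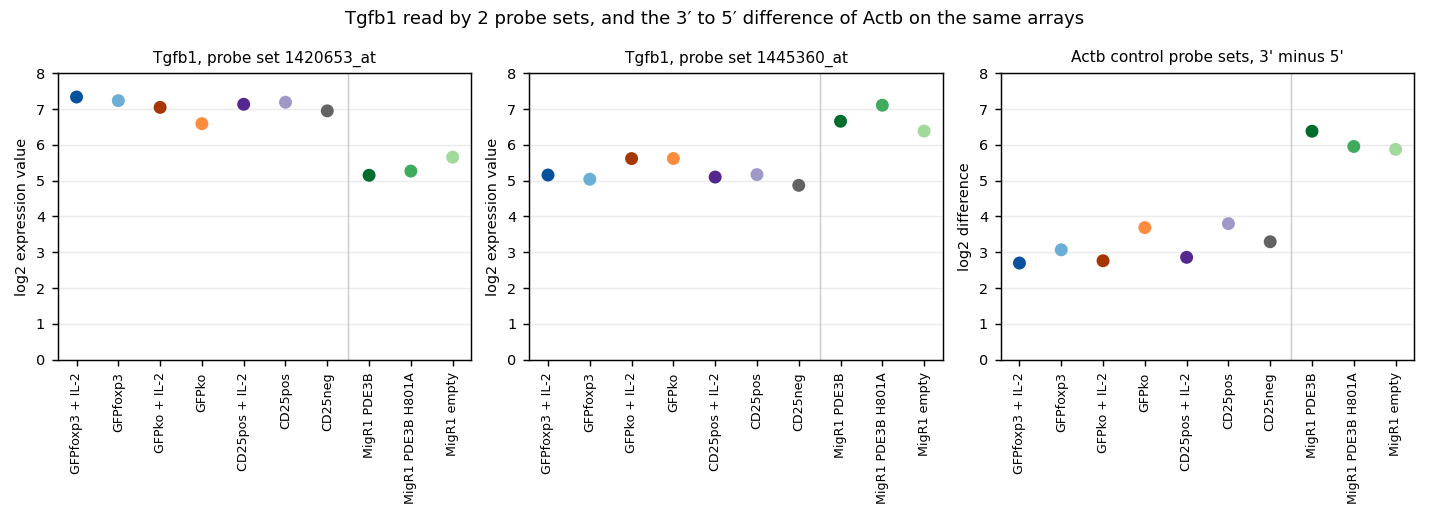
Log2 expression value of Tgfb1 by its 2 probe sets (left and middle) and the excess of the 3′ over the 5′ Actb control probe set in log2 units (right), 1 point per array. The 3 arrays of transduced cells are lowest in the left panel, at 5.15 to 5.66, and highest in the middle one, at 6.38 to 7.11; on the right they stand at 5.87 to 6.38.

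Among the freshly sorted cells, GFPfoxp3 cells had the highest Tgfbr1 and the lowest Tgfbr2 levels. Tgfbr1, the signalling type I receptor, was at 10.78 and 10.98 in GFPfoxp3 cells after IL-2 and without it, at 10.36 and 9.99 in GFPko cells and at 8.99 and 9.0 in CD25pos cells. CD25neg cells, at 9.14, lay with the CD25pos cells, and cells with PDE3B, H801A and the empty vector had 11.45, 11.17 and 10.96. GFPko cells thus stood between the others, with no overlap among the 3 populations. Tgfbr1 rose 3.69-fold in GFPfoxp3 over CD25pos cells (log2 difference 1.88, SE 0.169, limma adjusted p = 0.0128). GFPko cells differed from CD25pos cells by 1.18 (SE 0.169, limma adjusted p = 0.0505), just outside the threshold, and GFPfoxp3 cells from GFPko cells by 0.70 (SE 0.169, limma adjusted p = 0.0919). The call over CD25pos cells held in 11 of 12 alternative settings, and was lost for the pair of IL-2 arrays, where single arrays were set against the spread of the 6-array limma fit (adjusted p = 0.0565). The other 2 Tgfbr1 probe sets, which lay below the median on all 10 arrays (2.30 to 2.99), give no check. Settings on probe sets therefore left the Tgfbr1 difference unchanged. For the call over CD25pos cells, leaving out both GFPko arrays or only the IL-2 one gave the same fit.

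Tgfbr2, the ligand-binding type II receptor, was below every other sorted sample in GFPfoxp3 cells. It read 11.31 and 11.30 in GFPfoxp3 cells after IL-2 and without it, against 12.06 and 11.95 in GFPko, 12.13 and 11.81 in CD25pos and 12.34 in CD25neg cells. The transduced cells had 11.03 with PDE3B, 10.46 with H801A and 10.80 with the empty vector, below every sorted population by this probe set. Tgfbr2 fell by 0.69 on the log2 scale in GFPfoxp3 relative to GFPko cells (SE 0.120, limma adjusted p = 0.0499). Relative to CD25pos cells the difference was -0.66 (SE 0.120, limma adjusted p = 0.0507) and was not called. Both values sit at the threshold, and the call against GFPko cells held in 5 of 12 alternative settings. A dimmer probe set of Tgfbr2 read 5.01 and 4.84 in GFPfoxp3 cells, against 5.30 and 5.37 in GFPko cells and 5.02 and 5.11 in CD25pos cells, so it was below both there, though from CD25pos cells by no more than the last digit at the nearest pair. In transduced cells it read 4.92 with PDE3B, 4.91 with H801A and 4.77 with the empty vector. Only the last was below untreated GFPfoxp3 cells, so the probe sets disagree on this order.

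Smad3, the transcription factor that carries the signal to the nucleus, had its lowest mean in GFPko cells. It was at 9.72 and 9.86 in GFPfoxp3 cells after IL-2 and without it, 8.83 and 9.29 in GFPko, 9.77 and 10.02 in CD25pos and 9.26 in CD25neg cells, the last within the GFPko range. PDE3B, H801A and empty vector cells had 10.04, 9.85 and 10.01. Smad3 rose by 0.73 in GFPfoxp3 over GFPko cells (SE 0.124, limma adjusted p = 0.0490), a call that held in 3 of 12 alternative settings. GFPfoxp3 and CD25pos cells differed by -0.11 (SE 0.124, limma adjusted p = 0.678), and GFPko cells from CD25pos cells by -0.84 (SE 0.124, limma adjusted p = 0.0545). Of the other probe sets of Smad3, 1 lay below the array medians (2.00 to 2.27) and 1 near them (3.01 to 3.30).

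Of the negative regulators, Skil was called in 2 comparisons and Smad7 in none. Skil, which encodes the SMAD corepressor SnoN, was at 10.53 and 10.63 in GFPfoxp3 cells after IL-2 and without it, 10.84 and 10.71 in GFPko, 9.94 and 9.84 in CD25pos and 10.31 in CD25neg cells. By its brighter probe set it was highest in the transduced cells, at 11.51 with PDE3B, 11.22 with H801A and 11.04 with the empty vector. Both GFP-positive populations thus stood above CD25pos cells. Skil rose by 0.69 in GFPfoxp3 over CD25pos cells (SE 0.111, limma adjusted p = 0.0387) and by 0.88 in GFPko over CD25pos cells (SE 0.111, limma adjusted p = 0.0395). It was the only member called between GFPko and CD25pos cells, and GFPfoxp3 and GFPko cells differed by -0.19 (SE 0.111, limma adjusted p = 0.364). These calls held in 5 and 6 of 12 alternative settings. A dimmer probe set of Skil was highest in GFPko cells after IL-2 (4.24), above the transduced cells (3.71 to 3.94), and with the mean of both probe sets the 2 calls were lost (limma adjusted p = 0.0774 and 0.0533).

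Smad7, the inhibitory SMAD that blocks the type I receptor, was not called in any comparison. It read 8.84 and 9.43 in GFPfoxp3 cells after IL-2 and without it, 9.39 and 9.97 in GFPko, 9.35 and 9.15 in CD25pos and 10.05 in CD25neg cells. The transduced cells gave 8.17, 8.08 and 7.97 with PDE3B, H801A and the empty vector, below all 7 sorted samples. GFPfoxp3 cells overlapped with both other populations, and Smad7 had the largest spread of the members (moderated SD 0.238 log2 units, against 0.111 for Skil). GFPfoxp3 and GFPko cells differed by -0.55 (SE 0.238, limma adjusted p = 0.255). Its second probe set, whose identifier marks possible cross-matching, placed the transduced cells (5.36 to 5.87) above 6 of the 7 sorted samples (4.56 to 5.11), with CD25neg at 6.25, so the probe sets disagree on the transduced cells.

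In all, 3 of the 7 members were called in GFPfoxp3 over GFPko cells (Itgb8 and Smad3 higher, Tgfbr2 lower), where 7.47% of all genes tested were called. In GFPfoxp3 over CD25pos cells 3 were called, all higher (Itgb8, Tgfbr1 and Skil), against 8.73% of all genes, and in GFPko over CD25pos cells 1, against 3.48%. The members were chosen with earlier results of these data known, so their counts were not tested against these shares. After centring of every array on the median of its genes, the share of higher genes among all calls was 51.3% in place of 72.9% in the first comparison and 51.6% in place of 35.8% in the third. The member differences then were 3.22 for Itgb8, 0.58 for Smad3 and -0.84 for Tgfbr2 in the first, so no sign turned there, but Smad3 had an adjusted p of 0.0661 with limma. The comparisons share arrays, and their values are not independent of each other. Median differences over the 7 members were 0.47, 0.12 and 0.16, beside 0.008, -0.026 and -0.015 over all genes (log2). Some markers of other cells moved with these comparisons. For B cells the summed log2 level over 7 measured markers was 39.3 and 38.8 in GFPfoxp3, against 31.3 and 30.6 in GFPko and 33.3 and 33.7 in CD25pos cells, with Cd79a and Pax5 below the median on all 10 arrays. The GFPfoxp3 sums were raised by Cd74 (7.02 and 6.96), Cd79b (6.96 and 6.71) and Ighm (12.04 and 12.18). The B cell markers disagreed, since Cd22 was highest in CD25pos cells (6.56 and 6.67, against 4.98 and 4.97 in GFPfoxp3 cells). Cd22 was lowest in GFPko cells. Ms4a1 was no higher in GFPfoxp3 cells (3.43 and 3.42) than in GFPko and CD25pos cells. For 9 myeloid markers the sums were 24.0 and 23.6 in GFPfoxp3, against 29.1 and 26.8 in GFPko and 24.6 and 24.9 in CD25pos cells, with Itgam and Cd14 below the median on all 10 arrays. The GFPko sums were raised most by Fcgr3 (4.52 and 5.48, against 2.99 and 2.96 in GFPfoxp3 cells). Lyz2 raised only the sum after IL-2 (5.71, against 3.36 without it). For 6 measured markers of CD8 T and NK cells they were 20.0 and 18.8 in GFPfoxp3, against 21.6 and 19.6 in GFPko and 32.2 and 33.1 in CD25pos cells. The CD25pos sums were raised by Klrd1 (9.46 and 8.91), Eomes (8.51 and 9.41) and Klrk1 (4.33 and 4.65). Cd8a read 3.13 to 3.21 in all of these cells, and Ncr1 lay below the median on all 10 arrays. Cd8b1 was at 4.48 and 4.47 in CD25pos cells, against 5.53 and 4.86 in GFPko cells. The part of these markers in the member results was not tested.

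**Figure D3:**
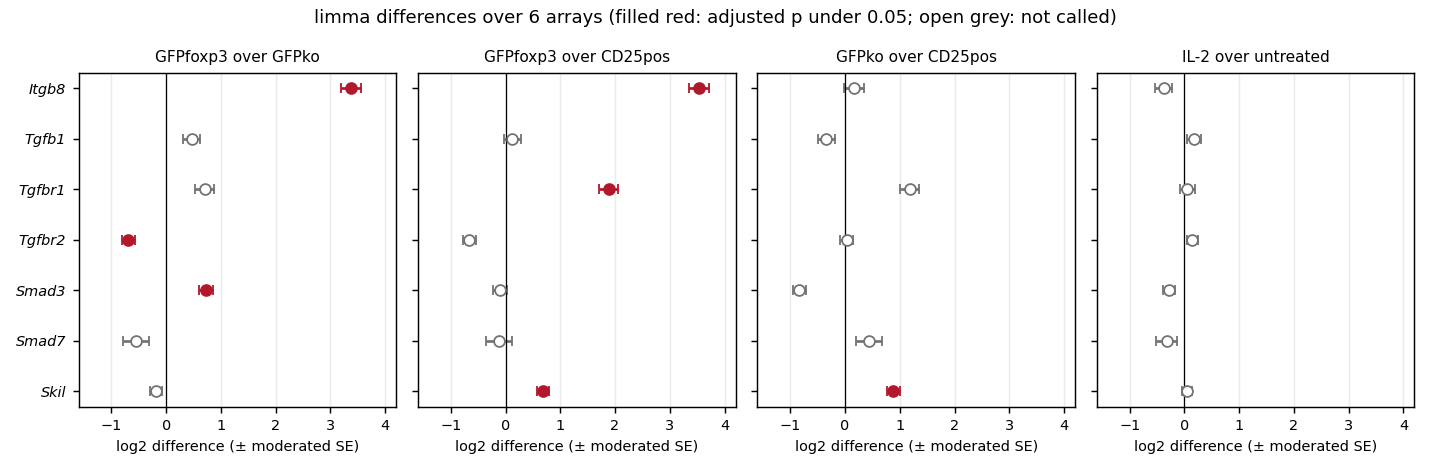
Log2 difference with its moderated SE (horizontal axis) for each member (vertical axis) in the 4 comparisons fitted with limma over 6 arrays; filled red points passed an adjusted p of 0.05. Itgb8 is at 3.37 and 3.53 in the comparisons of GFPfoxp3 cells and at 0.16 between GFPko and CD25pos cells.

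No change of a member after IL-2 was detectable. None of the 7 was called by limma (1 had an unadjusted p under 0.05, Smad3 with -0.28, SE 0.101), where 0.235% of all genes were called and 10.6% had such a p, and none was called in any alternative setting. In single populations, with 1 array on each side and no test, no member differed 2-fold, where 1.95% of all genes did in GFPfoxp3, 4.92% in GFPko and 1.35% in CD25pos cells. The largest values were for Itgb8 in CD25pos cells (-0.63, against -0.49 in GFPko and -0.02 in GFPfoxp3 cells) and for Smad7 in both GFP-positive populations (-0.59 in GFPfoxp3 and -0.58 in GFPko, against 0.20 in CD25pos cells). Whether these responses differ between populations was not tested, since their differences are the spread of the fit. In GFPko cells Tgfb1 differed by 0.45 and Tgfbr1 by 0.36, while the second Tgfb1 probe set read 5.62 with IL-2 and 5.62 without. The Actb 3′ to 5′ gap was 2.76 with IL-2 and 3.69 without in the same pair. It was smaller with IL-2 in GFPfoxp3 cells (2.70 against 3.07) and CD25pos cells (2.86 against 3.80) as well, and its part in the IL-2 values was not tested. The GFPko array after IL-2 was also the one with the highest myeloid sum of the 10.

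**Figure D4:**
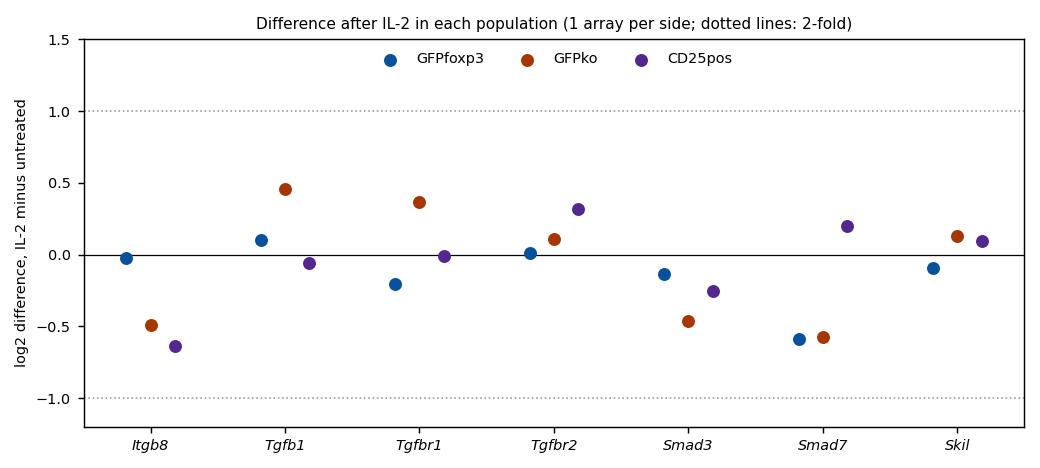
Log2 difference between the IL-2 and the untreated array (vertical axis) for each member in 3 populations, 1 array on each side. All points lie within the dotted lines that mark 2-fold; the lowest is Itgb8 in CD25pos cells at -0.63.

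CD25neg cells were measured once, without IL-2, and comparisons of the untreated arrays with them have no test. GFPfoxp3 cells differed at least 2-fold from them in 3 members, Itgb8 (4.21), Tgfbr1 (1.84) and Tgfbr2 (-1.04), where 10.9% of all genes did. With the mean of all its probe sets Tgfbr2 was at -0.61 there, within 2-fold. GFPko cells did so in 1, Itgb8 (1.08), against 6.73% of genes, with Tgfbr1 at 0.86. CD25pos cells did so in none, against 7.25%, the nearest being Itgb8 (0.99) and Smad7 (-0.90). These comparisons share the CD25neg array. Among the other pathway genes, GFPfoxp3 cells had the widest differences from CD25neg cells in Tgfbr3 (-4.49) for receptors and in Itgb5 (-2.25), an integrin beta chain, for activators.

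The PDE3B vectors left the members within 2-fold. PDE3B, a phosphodiesterase, breaks down cAMP, and H801A is a substitution in it. Between PDE3B and empty vector cells the differences ran from -0.51 (Tgfb1) to 0.49 (Tgfbr1), with Skil at 0.47. Between H801A and empty vector cells they ran from -0.39 (Tgfb1) to 0.21 (Tgfbr1), and between PDE3B and H801A cells from -0.12 (Tgfb1) to 0.57 (Tgfbr2). None of the 7 members reached 2-fold in any of these, where 5.44%, 2.3% and 3.04% of all genes did. Centring every array on the median of its genes moved the differences between PDE3B and empty vector cells upwards. They then ran from -0.29 (Tgfb1) to 0.70 (Tgfbr1), with Skil at 0.69, and none reached 2-fold. The Tgfb1 values depend on the probe set: with the mean of both they were -0.12 for PDE3B and 0.17 for H801A over the empty vector. The Tgfbr2 value of 0.57 does so too. A dimmer Tgfbr2 probe set read 4.92 with PDE3B and 4.91 with H801A, and the mean of probe sets gave 0.29. Of other pathway genes, Mmp9, a matrix protease, was higher by 1.57 with PDE3B than with the empty vector, and Itgb3 (-1.10) and Nrros (-1.04), which anchors latent TGF-beta on myeloid cells, were lower. By the brightest probe set of each member, Itgb8 varied least over the 3 vectors, with an SD of 0.088 log2 units, and Tgfbr2 most, with 0.287.

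Ordered over all arrays, many neighbouring values lay close together. Of the 9 gaps between neighbouring arrays, 7 in Smad3 and in Smad7, 6 in Tgfb1, 5 in Tgfbr1 and in Itgb8 and 4 in Tgfbr2 and in Skil were smaller than the SD of a difference between 2 arrays, taken from the moderated SD of the fit. That fit did not hold the CD25neg and transduced arrays, so this SD is only a yardstick and no test. For Itgb8 the 2 widest gaps separated the transduced cells from GFPfoxp3 cells and GFPfoxp3 cells from the rest.

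Other genes of latent TGF-beta activation split by integrin chain. Of 9 genes for integrin chains, thrombospondin and proteases that can act on latent TGF-beta, 6 were tested. Itgav, the alpha chain that pairs with beta 8, was at 9.97 and 9.93 in GFPfoxp3 cells after IL-2 and without it, against 9.02 and 9.26 in GFPko and 8.74 and 8.96 in CD25pos cells. It rose by 0.81 in GFPfoxp3 over GFPko cells (SE 0.122, limma adjusted p = 0.0380) and by 1.10 over CD25pos cells (SE 0.122, limma adjusted p = 0.0189). It was higher still in transduced cells, at 10.57 with PDE3B, 10.49 with H801A and 10.50 with the empty vector. Itgb3, another beta chain that pairs with alpha v, was at 7.39 and 7.73 in GFPfoxp3 cells, against 8.94 and 9.22 in GFPko and 9.37 and 9.39 in CD25pos cells. It fell by 1.52 relative to GFPko cells (SE 0.125, limma adjusted p = 0.0124) and fell by 1.82 relative to CD25pos cells (SE 0.125, limma adjusted p = 0.00813). Itgb1, the common beta 1 chain, rose by 1.99 over GFPko cells (SE 0.124, limma adjusted p = 0.00835), and over CD25pos cells it differed by 0.55 without a call. Unlike Itgav, Itgb1 was lower in transduced cells than in every sorted sample, at 6.0 with PDE3B, 6.3 with H801A and 6.0 with the empty vector. GFPko and CD25pos cells thus had more Itgb3 and less Itgav and Itgb8 signal than GFPfoxp3 cells. Of 11 genes for further ligands and latency proteins 5 were tested and 0 called in the comparisons of GFPfoxp3 with GFPko and with CD25pos cells (1 and 3 at an unadjusted p under 0.05), where limma called 7.47% and 8.73% of all genes and 26.0% and 25.6% had an unadjusted p under 0.05.

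**Figure D5:**
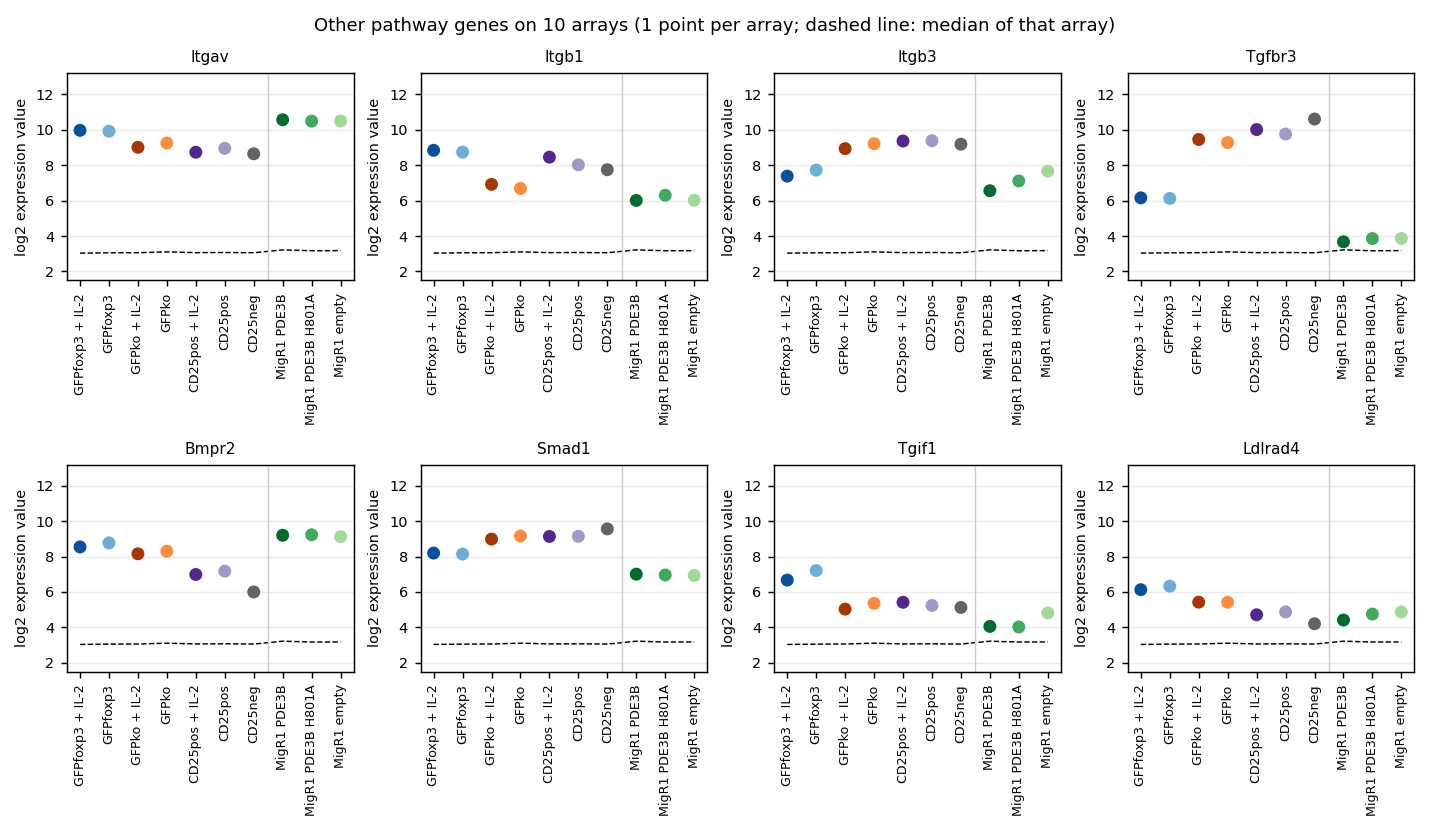
Log2 expression value (vertical axis) of 8 further pathway genes on each array (1 point per array), with the array median as a dashed line. Itgav is highest in transduced and GFPfoxp3 cells, while Tgfbr3 is at 6.16 and 6.13 in GFPfoxp3 cells, against 9.28 or higher in the other sorted cells.

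Among 12 further receptors, 11 of them tested, the accessory receptor betaglycan stood out. Tgfbr3, which encodes it and presents ligand to the type II receptor, was at 6.16 and 6.13 in GFPfoxp3 cells after IL-2 and without it, against 9.46 and 9.28 in GFPko, 10.02 and 9.76 in CD25pos and 10.61 in CD25neg cells. In transduced cells it was at 3.68 with PDE3B, 3.86 with H801A and 3.87 with the empty vector. It fell by 3.23 relative to GFPko cells (SE 0.108, limma adjusted p = 0.00520) and fell by 3.75 relative to CD25pos cells (SE 0.108, limma adjusted p = 0.00479). Bmpr2, a type II receptor for bone morphogenetic proteins, rose by 1.58 in GFPfoxp3 over CD25pos cells (SE 0.096, limma adjusted p = 0.00636) and was not called over GFPko cells. Its levels were 8.55 and 8.77 in GFPfoxp3, 8.16 and 8.30 in GFPko, 6.99 and 7.18 in CD25pos and 6.00 in CD25neg cells. Of 4 further SMAD genes tested, Smad1, which serves bone morphogenetic protein signals, fell by 0.90 relative to GFPko cells (SE 0.110, limma adjusted p = 0.0259) and fell by 0.97 relative to CD25pos cells (SE 0.110, limma adjusted p = 0.0197). Smad2, Smad4 and Smad5 were not called, with differences from -0.24 to 0.13.

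Of 27 regulators of the signal 25 were tested, and 2 were higher and 0 lower in each comparison of GFPfoxp3 cells. These were Tgif1, a homeodomain repressor of SMAD activity, by 1.75 over GFPko (SE 0.202, limma adjusted p = 0.0238) and 1.61 over CD25pos cells (SE 0.202, limma adjusted p = 0.0246), and Ldlrad4, a membrane protein that hinders SMAD phosphorylation, by 0.81 (SE 0.108, limma adjusted p = 0.0303) and 1.44 (SE 0.108, limma adjusted p = 0.00903). Transduced cells did not share these high levels. With PDE3B, H801A and the empty vector Tgif1 was at 4.1, 4.0 and 4.8, below every sorted sample. Ldlrad4 was at 4.42, 4.75 and 4.87, below GFPfoxp3 and GFPko cells. Of 25 genes known to respond to TGF-beta, raised or lowered, 22 were tested. In GFPfoxp3 over GFPko cells 9 were higher and 1 lower, and over CD25pos cells 9 higher and 5 lower, where 5.44% and 5.28% of all genes were higher and 2.03% and 3.45% lower. The list was chosen with earlier results of these data known and mixes genes that TGF-beta raises and lowers. Its counts therefore have no single direction for the pathway and were not tested against these shares. Itgae, the CD103 chain that TGF-beta induces, had the largest difference over CD25pos cells (5.44) and one of 4.31 over GFPko cells. Gpr15, an intestinal homing receptor, rose by 2.14 over GFPko cells, and Id2, an inhibitor of helix-loop-helix factors, fell by 2.23 there and fell by 3.80 relative to CD25pos cells. Transduced cells had Id2 at 11.10 with PDE3B, 11.15 with H801A and 10.93 with the empty vector, above GFPfoxp3 and GFPko cells. Among genes that TGF-beta is known to lower, Gzmb, granzyme B, rose by 5.21 over GFPko cells, in which the untreated array lay below its median. Tbx21, the T-bet gene, fell by 3.45 relative to CD25pos cells, with 6.28 and 6.37 in GFPfoxp3, 4.70 and 5.27 in GFPko and 9.51 and 10.04 in CD25pos cells. PDE3B, H801A and empty vector cells had Tbx21 at 9.3, 9.2 and 9.2, also above GFPfoxp3 and GFPko cells. Itgae, Gpr15 and Gzmb were higher in transduced than in GFPfoxp3 cells. Il2 was at least 11.8-fold lower than in CD25pos cells, being below the array medians in GFPfoxp3 cells. Over all 68 further pathway genes tested, 11 were higher and 4 lower over GFPko cells, and 11 higher and 8 lower over CD25pos cells.

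Genes with profiles like those of the members were sought for the 4 members whose levels spanned at least 2 log2 units, by the mean absolute difference over the 10 arrays after each gene was centred on its own mean. Nearest to Itgb8, which spanned 5.31 units, were Cd74, the invariant chain of antigen presentation and 1 of the B cell markers above (0.320), Gpr15 (0.379) and Entpd1, the ectonucleotidase CD39 (0.415). Nearest to Tgfbr1, which spanned 2.46, were Sdcbp2 (0.233), Tlr1, a receptor for bacterial lipopeptides (0.245), and Dennd5a (0.245). Tgfb1 lay nearest to Parl, a mitochondrial protease (0.070), and Smad7 nearest to Ripor2 (0.149). These profiles are those of the brightest probe sets. The points share arrays and the step between the experiments, so likeness is a description of these 10 arrays.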

How the data were processed

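The authors deposited log2 expression values of 45101 probe sets on 10 Affymetrix arrays, 1 per group, normalized together per the series' design text. Per the labels' protocols, the RNA of sorted cells went through 2 rounds of amplification. How background, summary and normalization were done is not stated in the labels used here, and the log2 scale was read from the values (array medians 3.04 to 3.22). GEO's platform annotation gave the probe sets' genes, updated by Entrez ID to GRCm38.p6 (34741 of 34945 with 1 gene matched; 932 had several genes, 9160 none, and these were not named). A probe set was kept where it reached the median of 1 array or more, and each gene was read by its brightest kept probe set, which left 11938 genes.

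Differences among 3 populations and after IL-2 were fitted with limma 3.58.1 in R 4.3.3 on 6 arrays, with 2 residual degrees of freedom, and p-values were adjusted by Benjamini-Hochberg over all genes (threshold 0.05). The fit was tested on simulated data. The 9 comparisons of single arrays have no test, and a threshold of 2-fold was used there. Where the lower side lay below its array medians, a fold is given as "at least", against those medians. All members are described. Other pathway genes are named when called in a comparison of GFPfoxp3 cells, up to 4 per list and comparison by size, or when 2-fold apart in single arrays, up to 2 per list. The members and lists were chosen with earlier results of these data known. Alternatives covered normalization, the filter, the choice of probe set, the variance model and the arrays in the fit. Precision is limited by having 1 array per group.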

Additional observations from a re-analysis of the deposited data

How the results depend on the processing

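No paired analysis was possible because each group holds 1 array, so no replicate numbers pair samples; the fit itself compares populations within each IL-2 state. Settings named for the untreated or the IL-2 pair set single arrays against the spread of the 6-array fit, so they do not test these arrays on their own. The setting with all 10 arrays took the 3 vector groups as 1 population, so differences between the vectors counted as replicate spread. Calls of Itgb8 and Tgfbr1 were the steadiest, and calls of Smad3, Tgfbr2 and Skil rested on the settings. The settings overlap, so their number overstates the separate checks. In GFPfoxp3 over CD25pos cells, leaving out both GFPko arrays or only the IL-2 one was the same fit. Of 3 members called in GFPfoxp3 over GFPko cells, 1 was called with quantile normalization, with no filter on dim genes, without the CD25pos arrays, and for the untreated or the IL-2 pair. With the GFPko array after IL-2 left out, a setting chosen after seeing the data, 0 were called there, with 0 of all genes; the lone GFPko array was assumed to vary like the other groups. In GFPfoxp3 over CD25pos cells 1 of 3 was called for the IL-2 pair. In GFPko over CD25pos cells, where 1 was called, 2 were with median centring and with an intensity trend, 3 with a filter on the mean and with all 10 arrays, and 0 with no filter, without the GFPfoxp3 arrays, without that GFPko array, and for either pair. Over all genes the calls of the first comparison numbered 892, and 1379 with centring, 382 with no filter, 408 without the CD25pos arrays, and 181 and 188 for the untreated and IL-2 pairs. Those of GFPfoxp3 over CD25pos cells numbered 1042, and 609 with no filter, and 260 and 238 for the untreated and IL-2 pairs. Those of GFPko over CD25pos cells numbered 416, and 864 with centring, 33 with no filter, 13 and 9 for the untreated and IL-2 pairs, and 0 without the GFPfoxp3 arrays or that GFPko array. Those of IL-2 numbered 28, and 121 with centring, 59 with all 10 arrays, 53 with a filter on the mean, and 0 with quantile normalization, no filter, no cross-matching probe sets, an intensity trend, or any population or that array left out. Signs turned in values that were not called. Tgfb1 went to -0.026 (GFPfoxp3 over GFPko) and 0.07 (GFPko over CD25pos) with the mean of all probe sets, Smad7 to 0.28 over CD25pos cells in untreated arrays, Tgfbr2 to -0.069 in GFPko over CD25pos after IL-2, and Tgfbr1 after IL-2 to -0.11 without the GFPko arrays or without the GFPko array after IL-2. In single arrays the members' values turned sign 9 times over 6 alternatives. Of these alternatives, the 1.5-fold and 3-fold thresholds and the setting without cross-matching probe sets left every member value unchanged, so no sign could turn in them. The turns include Tgfb1 with the mean of probe sets, at 0.17 (H801A over empty) and 0.20 (GFPko over CD25neg), and with centring at 0.004 (PDE3B over H801A). A 1.5-fold threshold gave 5 members for GFPfoxp3, 2 for GFPko and 3 for CD25pos over CD25neg cells (24.1%, 16.4% and 19.7% of all genes) and 1 each for IL-2 in GFPfoxp3 and CD25pos cells (5.87% and 5.29%). A 3-fold one gave 0 for GFPko over CD25neg and lost Tgfbr2 in GFPfoxp3 over CD25neg cells, as did the mean of probe sets (-0.61), and centring or the mean of probe sets gave 1 for CD25pos over CD25neg. The cause of these changes was not tested. With 2 residual degrees of freedom, small differences were not detectable here.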
